A study of Mus musculus with 96 samples.

Results

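The NRF2 pathway genes are 9 genes of the cell's defence against oxidants and reactive chemicals: Nfe2l2, Keap1, Nqo1, Gclc, Gclm, Gsr, Txnrd1, Srxn1 and Ephx1. Their members on the array were the probe sets annotated to exactly 1 gene symbol, with that symbol among the 9, which gave 19 probe sets of 45037 that were not control probe sets. All 19 passed the filter on low signals, which kept 32999 probe sets. The kept probe sets with 1 symbol stood for 14816 genes.

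NRF2, the protein of Nfe2l2, is a transcription factor that KEAP1 holds in the cytoplasm and marks for breakdown. Oxidants and electrophiles modify KEAP1, NRF2 then enters the nucleus, pairs with a small MAF protein and binds antioxidant response elements near its target genes. In liver its targets make and recycle glutathione, reduce thioredoxin and process drugs and other reactive compounds.

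The samples were livers of 96 male mice, with 1 mouse on each Affymetrix array. The restricted groups received 25% fewer calories from 8 weeks of age and their livers were taken at 22 weeks. Their strains were the inbred C57BL6/J, DBA/2J, 129S1/SvImJ, CBA/J and C3H/HeJ, and the hybrid B6C3F1/J, whose parents are C57BL6/J and C3H/HeJ. The control groups were mice of the same 6 strains and the same age on the control diet. Each of the 12 groups held 8 mice, and all had been housed singly on a purified diet from 6 weeks of age. For 2 weeks of acclimation, before the diets began, all received 84 kcal per week. No group carried an engineered allele per the labels. The design addresses how the liver's transcripts respond to short-term restriction and how that differs between strains.

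Values are log2 MAS5 signals, and each difference is the restricted mean less the control mean with its SE, and a fold is given as the ratio of restricted to control signal. Signals of different probe sets do not share a scale and were not ranked against each other. A call is a Benjamini-Hochberg adjusted p under 0.05 over all 32999 probe sets in limma. Each gene is represented by its probe set with the highest mean signal unless another is named. RNA came from whole liver, so fewer cells of a type and less RNA per cell cannot be told apart.

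On 94 arrays the median over all probe sets was 6.21 to 7.5 in log2 signal, while DBA/2J restricted replicate 6 stood at 8.29 and B6C3F1/J control replicate 2 at 8.66. In CBA/J the array medians averaged 7.29 ± 0.20 on restriction and 6.52 ± 0.06 on the control diet (SD, n = 8 each), and the 2 groups did not overlap. In DBA/2J they averaged 7.08 ± 0.53 on restriction and 6.78 ± 0.12 on the control diet (SD, n = 8 each), and 6.9 ± 0.22 on restriction without replicate 6 (n = 7). The 3' less the 5' Gapdh control probe set on the log2 scale, a measure of RNA length, averaged -0.03 in CBA/J restricted arrays and -0.4 in CBA/J control arrays, while that of the beta-actin probe sets averaged 1.26 in the restricted and 1.18 in the control arrays. In DBA/2J the Gapdh measure averaged 0.1 ± 0.99 in restricted and -0.29 ± 0.23 in control arrays, and the beta-actin measure 1.54 ± 1.39 in restricted and 0.78 ± 0.18 in control arrays (SD). Without replicate 6 the restricted DBA/2J arrays averaged -0.24 ± 0.18 for Gapdh and 1.07 ± 0.41 for beta-actin. The summed signal of 5 hepatocyte markers, albumin among them, lay between 841647 and 1728390 in restricted CBA/J livers and between 357929 and 456804 in control CBA/J livers. Over all strains these sums spanned 202926 to 1728390 on restriction and 228911 to 940923 on the control diet. Kupffer cell markers in CBA/J summed to between 7701 and 14015 on restriction and between 4958 and 10476 on the control diet, and endothelial markers to between 9552 and 14742 on restriction and between 7741 and 9348 on the control diet. The part of these differences in the results was not tested, and values without CBA/J or without the 2 arrays stand beside the results whose calls change.

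Promoter sequences of RefSeq on build GRCm38.p6, 250 bases before to 50 bases after a start site, matched 7 of the 9 genes with 9 promoters, all but Gclc and Gsr. They were searched on both strands for the core of the antioxidant response element, TGACNNNGC, and for its variant TGAGNNNGC, which was added after the sequences had been read. A match was present in 4 of the 9 promoters. Of all 32851 promoters of the RefSeq set, 12.4% held TGACNNNGC, 17.6% held TGAGNNNGC and 27.8% held either. The 4 promoters with a match follow, with that of Ephx1, the gene with the largest fall on restriction, which held neither motif. Capitals mark the matches, and a match on the other strand reads as its reverse complement.
Nfe2l2, chr2:75704614-75704913, minus strand: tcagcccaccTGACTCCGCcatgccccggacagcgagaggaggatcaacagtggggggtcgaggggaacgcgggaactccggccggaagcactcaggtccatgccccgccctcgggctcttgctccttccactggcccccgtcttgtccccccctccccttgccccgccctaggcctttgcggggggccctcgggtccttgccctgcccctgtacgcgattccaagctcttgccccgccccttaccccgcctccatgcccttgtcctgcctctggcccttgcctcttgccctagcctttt
Gclm, chr3:122245307-122245606, plus strand: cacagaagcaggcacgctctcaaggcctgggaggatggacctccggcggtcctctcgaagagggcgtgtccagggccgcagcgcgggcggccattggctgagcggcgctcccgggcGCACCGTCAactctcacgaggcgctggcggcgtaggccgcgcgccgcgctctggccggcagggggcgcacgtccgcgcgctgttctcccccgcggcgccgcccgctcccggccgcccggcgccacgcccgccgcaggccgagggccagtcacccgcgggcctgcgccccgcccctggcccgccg
Txnrd1, the second of its 3 promoters, chr10:82858956-82859255, plus strand: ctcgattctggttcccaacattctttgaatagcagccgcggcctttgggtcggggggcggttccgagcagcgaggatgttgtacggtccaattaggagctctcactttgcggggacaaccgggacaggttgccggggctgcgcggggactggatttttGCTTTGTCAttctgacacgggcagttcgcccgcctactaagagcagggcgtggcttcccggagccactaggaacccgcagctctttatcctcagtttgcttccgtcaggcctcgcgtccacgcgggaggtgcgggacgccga
Srxn1, chr2:152105274-152105573, plus strand: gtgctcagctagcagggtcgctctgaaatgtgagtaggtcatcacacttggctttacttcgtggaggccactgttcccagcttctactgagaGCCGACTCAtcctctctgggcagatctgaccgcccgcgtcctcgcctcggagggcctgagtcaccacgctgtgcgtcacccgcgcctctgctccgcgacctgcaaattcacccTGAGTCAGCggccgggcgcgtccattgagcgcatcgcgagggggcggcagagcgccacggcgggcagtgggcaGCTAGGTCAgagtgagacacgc
Ephx1, chr1:181017520-181017819, minus strand: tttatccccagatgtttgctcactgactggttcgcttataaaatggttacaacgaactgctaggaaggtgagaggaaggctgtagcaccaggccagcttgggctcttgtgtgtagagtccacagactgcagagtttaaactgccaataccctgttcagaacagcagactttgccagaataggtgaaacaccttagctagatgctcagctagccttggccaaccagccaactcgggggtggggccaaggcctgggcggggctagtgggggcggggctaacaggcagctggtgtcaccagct
Srxn1 held 3 matches, 1 of TGACNNNGC and 2 of TGAGNNNGC, while Nfe2l2, Gclm and Txnrd1 held 1 match each, of TGACNNNGC. The match TGAGTCAGC in the Srxn1 promoter also contains TGAGTCA, the motif of the AP-1 factors. A window of this size holds only part of a gene's control sequence.

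Averaged over the 6 strains, restriction lowered the glutathione synthesis genes Gclc and Gclm, the thioredoxin reductase Txnrd1, the epoxide hydrolase Ephx1 and the inhibitor Keap1, and raised none of the 9. The called genes were thus 5 of 9 lower and 0 higher, and over all 19 probe sets 11 were lower and 0 higher. Of all probe sets tested, 22.7% were called, 11.7% lower and 11% higher. With 1 probe set per gene, the unit of the count of 9, the share called was 27.6%. Among probe sets that reached the array median in at least 48 arrays it was 34.1%. The median difference of the 9 genes was -0.172, beside 0.0511 over all probe sets tested. The 5 genes were also lower without CBA/J and without the 2 arrays of high median.

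Ephx1, the microsomal enzyme that hydrolyses epoxides of drugs and pollutants, fell most, by 0.78 ± 0.09 on the log2 scale, which is a ratio of restricted to control signal of 0.582 (adjusted p = 6.03e-12). Gclc, the catalytic subunit of the enzyme that sets the rate of glutathione synthesis, fell by 0.55 ± 0.09, a ratio of 0.683 (adjusted p = 1.31e-06). Gclm, its modifier subunit, fell by 0.42 ± 0.08, a ratio of 0.746 (adjusted p = 1.03e-05). The 2 subunits of that enzyme thus moved in the same direction. Txnrd1, the cytosolic reductase that keeps thioredoxin active, fell by 0.27 ± 0.06 (adjusted p = 0.000812). Keap1 fell by 0.17 ± 0.05 (adjusted p = 0.00408), a call that was lost under quantile normalization (adjusted p = 0.0533), and by 0.32 ± 0.05 without CBA/J (adjusted p = 3.29e-06).

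The other 4 genes were not called in the average. Nfe2l2 differed by -0.12 ± 0.07 (adjusted p = 0.174), and without CBA/J by -0.0024 ± 0.075 (adjusted p = 0.99). Nqo1, a quinone reductase often used as a readout of NRF2 activity, differed by 0.17 ± 0.11 (adjusted p = 0.3). Gsr, which regenerates reduced glutathione, differed by -0.11 ± 0.11 (adjusted p = 0.531). Srxn1, which repairs over-oxidised peroxiredoxins, differed by -0.08 ± 0.11 (adjusted p = 0.65).

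**Figure D1:**
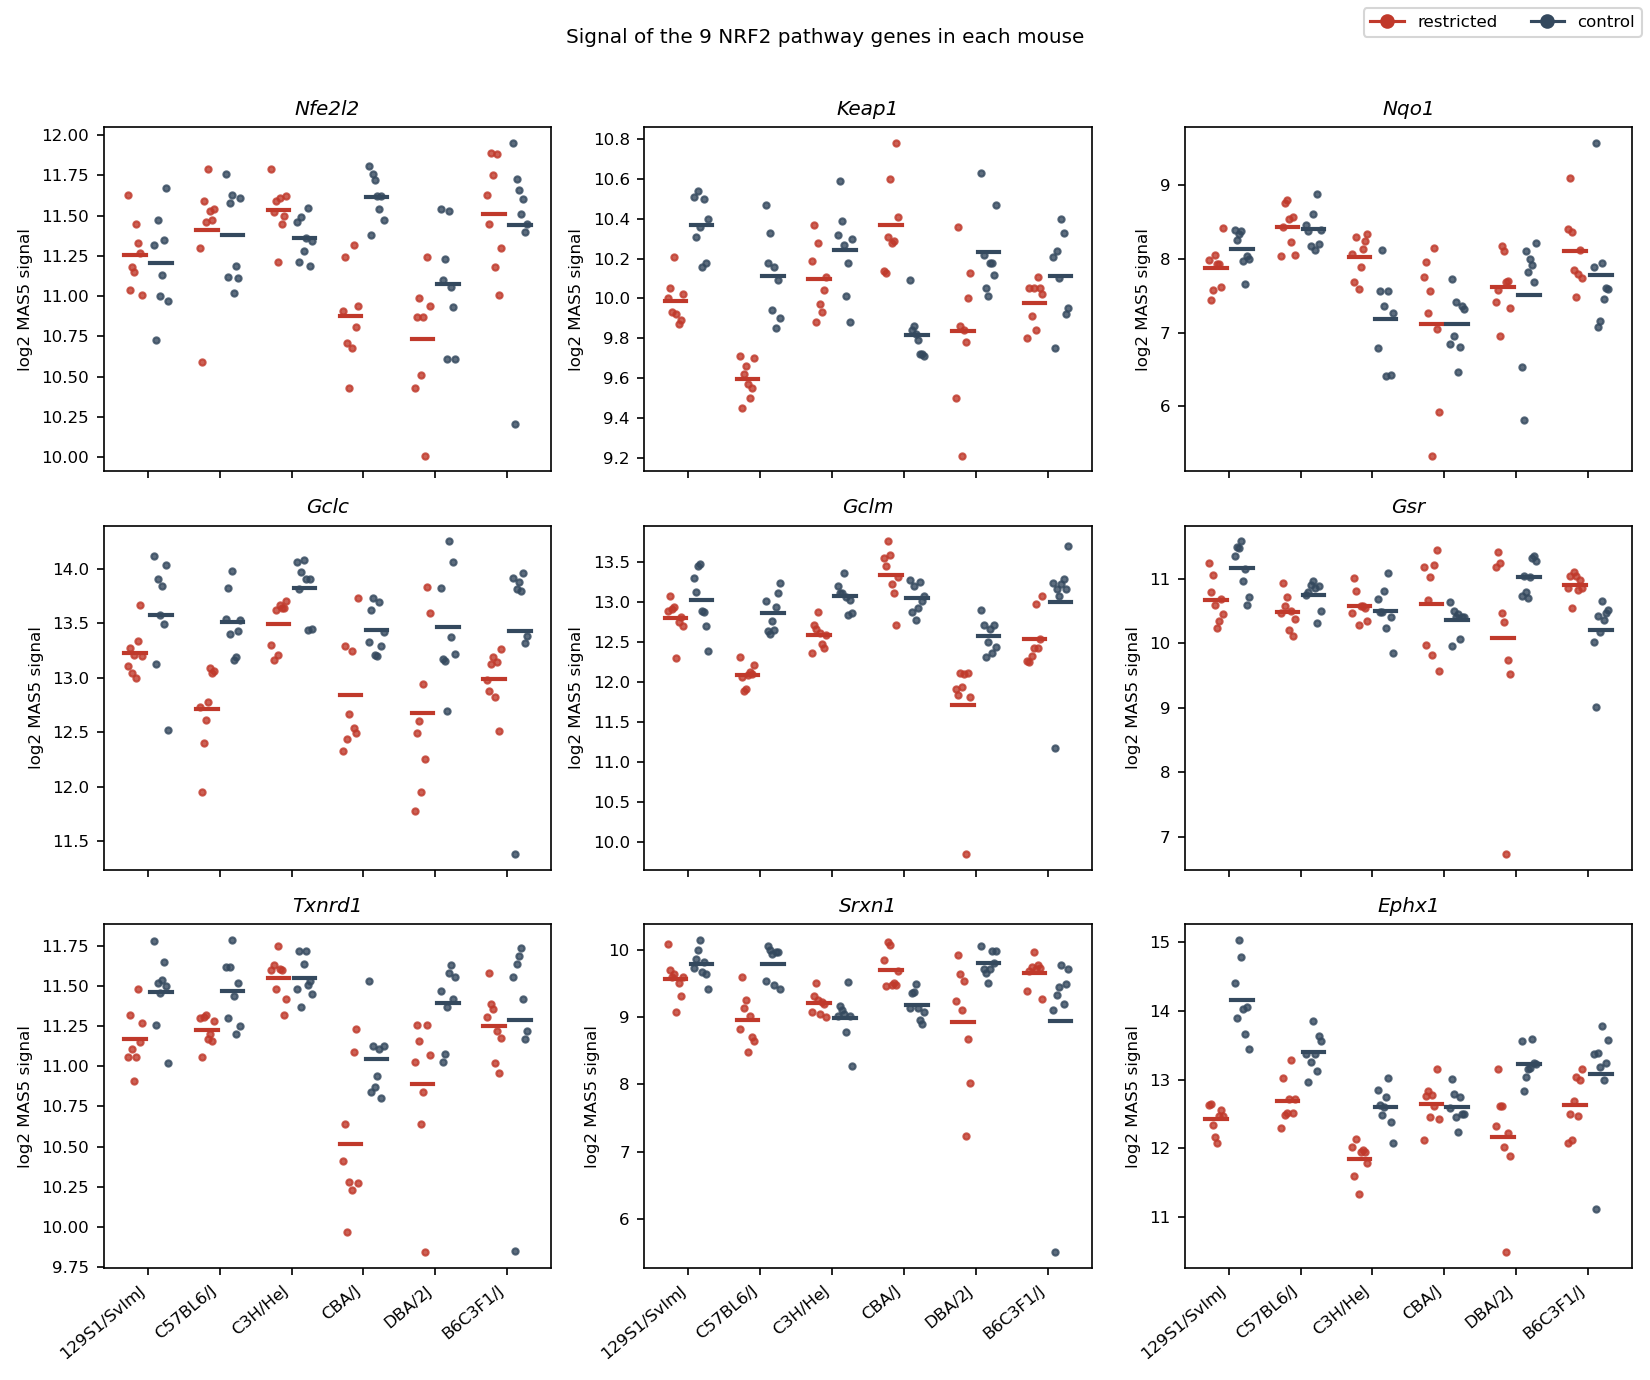
Log2 MAS5 signal (vertical axis) of each of the 9 genes in each of 96 mice, by strain (horizontal axis), with restricted mice in red to the left of control mice in dark blue and a bar at the mean of 8 mice. Ephx1 in 129S1/SvImJ separates fully, with restricted mice between 12.08 and 12.65 and control mice between 13.44 and 15.04. In that strain 0.83% of all probe sets separate in this direction. The lowest B6C3F1/J control point is replicate 2 for Nfe2l2, Gclc, Gclm, Gsr, Txnrd1, Srxn1 and Ephx1.

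Of the other 10 probe sets of the same genes, 3 were called where the chosen one was not. For Nfe2l2, 1457117_at fell by 0.63 ± 0.12 (adjusted p = 1.97e-05) and was negative in 6 of 6 strains, while the chosen 1416543_at was negative in 2 of 6. For Gsr, 1421817_at fell by 0.33 ± 0.07 (adjusted p = 9.7e-05). For Srxn1, 1426875_s_at fell by 0.29 ± 0.08 (adjusted p = 0.00254), and its other 2 probe sets, 1419942_at and 1425351_at, were not called. Statements on Nfe2l2, Gsr and Srxn1 therefore depend on the probe set, and which transcript forms each probe set reads was not analysed here. For Gclm, 1439050_at fell by 0.91 ± 0.08 (adjusted p = 9.25e-16), and for Gclc, 1455959_s_at fell by 0.35 ± 0.07 (adjusted p = 0.000113), both in the direction of the chosen probe set. For Txnrd1, 1424486_a_at fell by 0.54 ± 0.16 (adjusted p = 0.00746) and 1424487_x_at differed by -0.25 ± 0.21 (adjusted p = 0.441). For Keap1, 1450747_at differed by -0.25 ± 0.12 (adjusted p = 0.118), so its averaged call also depends on the probe set. Without CBA/J that probe set differed by -0.40 ± 0.13 (adjusted p = 0.0245). Without CBA/J 12 of the 19 probe sets were lower and 0 higher, beside 13.6% of all probe sets called. Without the 2 arrays 11 were lower and 0 higher, beside 28.1%.

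**Figure D2:**
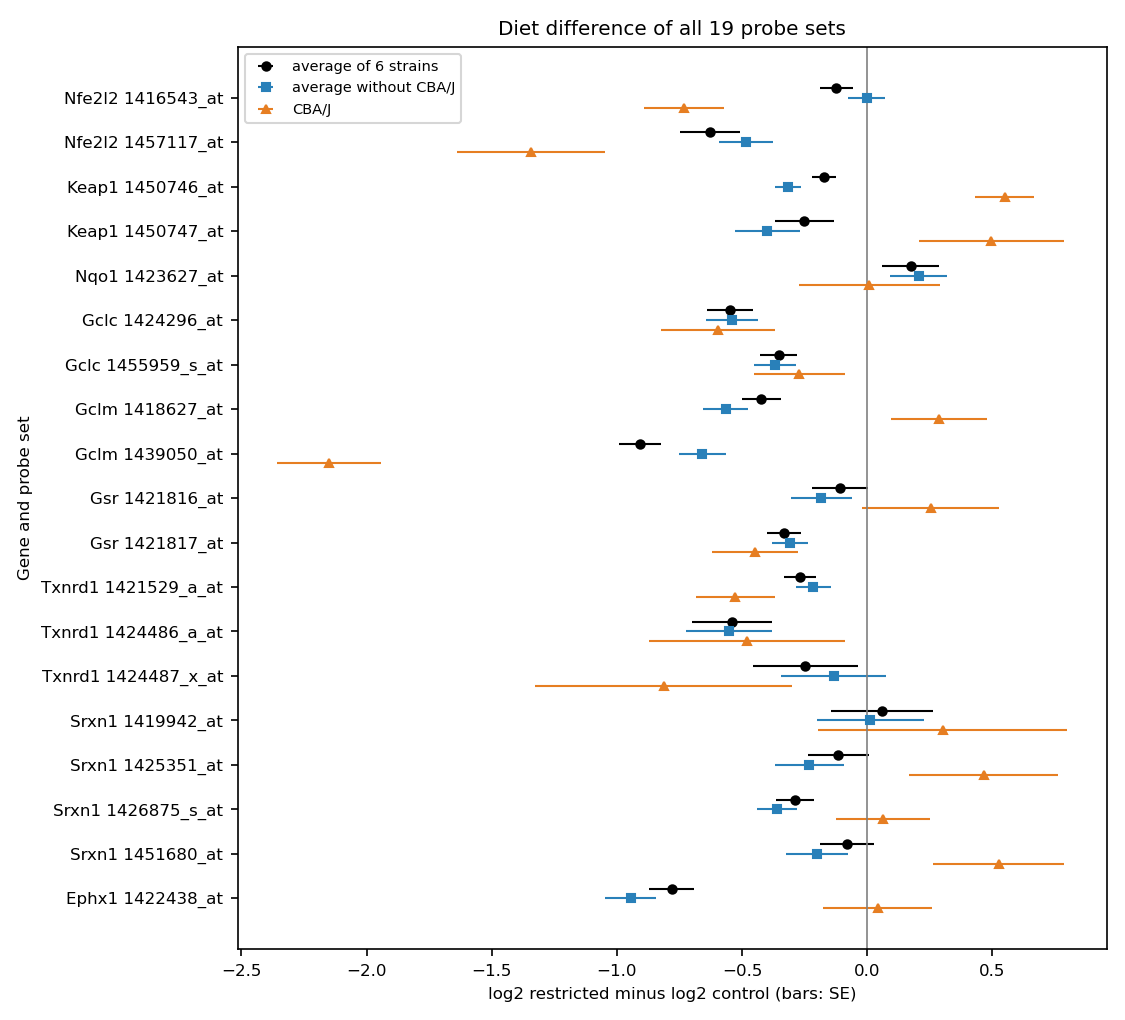
Diet difference of each of the 19 probe sets (vertical axis), as log2 restricted minus log2 control (horizontal axis) with its SE, for the average of 6 strains, the average without CBA/J, and CBA/J. The 2 probe sets of Gclm lie on opposite sides of 0 in CBA/J, at 0.29 and -2.15, and on the same side in both averages.

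Within strains the calls differed from strain to strain, and each strain is set beside its own share of all probe sets. In DBA/2J 7 of the 9 genes were called lower and 0 higher, beside 5.38% of all probe sets called, 3.45% lower and 1.93% higher. The array medians and control probe sets given above also differed between the diets in DBA/2J, and their part in these calls was not tested. In C57BL6/J 3 were lower and 0 higher, beside 2.51% called, 1.3% lower and 1.21% higher. In 129S1/SvImJ 2 were lower and 0 higher, beside 3.32% called, 1.63% lower and 1.69% higher. In CBA/J 3 were lower and 1 higher, beside 35.6% called, 15% lower and 20.6% higher. In C3H/HeJ limma called 0 genes, beside 1.16% of all probe sets called, 0.515% lower and 0.642% higher. There 3 genes had an unadjusted p under 0.05, and the smallest adjusted p was 0.0622, for Ephx1. In B6C3F1/J limma also called 0 genes, beside 3.29% called, 1.15% lower and 2.15% higher. There 4 genes had an unadjusted p under 0.05, and the smallest adjusted p was 0.115, for Srxn1.
The median difference of the 9 genes was -0.784 in DBA/2J, -0.52 in C57BL6/J, -0.293 in 129S1/SvImJ, -0.0339 in B6C3F1/J, -0.00056 in C3H/HeJ and 0.0417 in CBA/J. Over all probe sets it was 0.0623, -0.0331, 0.0409, -0.073, -0.00702 and 0.295 in the same strains.

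The 2 arrays of high median bear on several of these counts. Without them 3 genes fell in B6C3F1/J: Gclm by 0.73 ± 0.13 (adjusted p = 2.33e-05), Gclc by 0.74 ± 0.20 (adjusted p = 0.0198) and Ephx1 by 0.73 ± 0.17 (adjusted p = 0.00283). In that setting 3.31% of all probe sets were called in B6C3F1/J. In C3H/HeJ the calls became 2 lower, Ephx1 and Gclm, with Gclm at -0.48 ± 0.12 (adjusted p = 0.0102, against 0.34 with the arrays). In C57BL6/J they became 5 lower, and in DBA/2J 5 lower, while the count in 129S1/SvImJ was 2 lower again. In CBA/J they became 3 lower and 3 higher, with Gclm and Srxn1 added to Keap1. Neither array belongs to C3H/HeJ, C57BL6/J or CBA/J, so the differences there kept their size and the spread shared by all groups was smaller. The share of all probe sets called without the 2 arrays was 2.54% in C3H/HeJ, 4.72% in C57BL6/J, 6.21% in DBA/2J, 6.15% in 129S1/SvImJ and 41.6% in CBA/J.

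**Figure D3:**
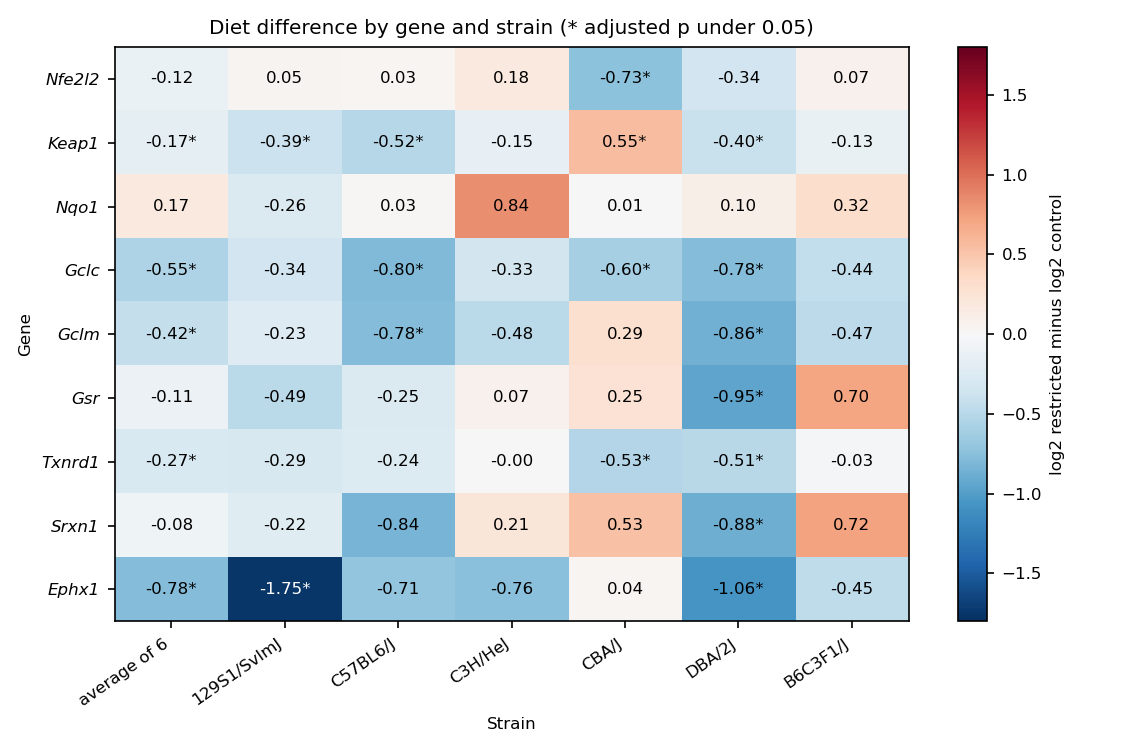
Log2 restricted minus log2 control for each gene (rows) in the average of 6 strains and in each strain (columns), with blue for lower and red for higher on restriction and a star at adjusted p under 0.05. Gclc is negative in all 6 strains, from -0.80 to -0.33, and the column of CBA/J holds the one starred positive value, Keap1 at 0.55.

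Keap1, whose protein is the sensor that restrains NRF2, was called lower in 3 strains and higher in CBA/J by the chosen probe set. In C57BL6/J its lowest, median and highest log2 signals were 9.45, 9.6 and 9.71 in restricted mice, against 9.85, 10.12 and 10.47 in control mice. Every restricted C57BL6/J mouse lay below every control mouse, as 1.17% of all probe sets did in that strain, and the difference was -0.52 ± 0.12 (adjusted p = 0.00266). In CBA/J the values were 10.13, 10.3 and 10.78 in restricted mice, against 9.71, 9.8 and 10.09 in control mice. All restricted CBA/J mice lay above all control mice, as for 4.67% of all probe sets, with a difference of 0.55 ± 0.12 (adjusted p = 0.000108).
In 129S1/SvImJ Keap1 had 9.87, 9.97 and 10.21 in restricted mice, against 10.16, 10.38 and 10.54 in control mice, so the groups overlapped at their edges. The difference there was -0.39 ± 0.12 (adjusted p = 0.0449), a call kept under 9 of 13 alternative settings, with adjusted p from 0.00692 to 0.606. In DBA/2J Keap1 had 9.21, 9.85 and 10.36 in restricted mice, against 10.01, 10.18 and 10.63 in control mice, with a difference of -0.40 ± 0.12 (adjusted p = 0.0269) and overlapping groups. Its difference was -0.15 ± 0.12 in C3H/HeJ and -0.13 ± 0.12 in B6C3F1/J, and neither was called. The second probe set, 1450747_at, was called lower in DBA/2J alone, at -1.15 ± 0.29 (adjusted p = 0.00659). Without the array of high median it was -0.64 ± 0.22 there (adjusted p = 0.0647). It was -0.07 in 129S1/SvImJ (adjusted p = 0.973) and 0.50 in CBA/J (adjusted p = 0.17), with overlapping groups. In C57BL6/J it was -0.71 (adjusted p = 0.255, and 0.0307 without the 2 arrays).

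Nfe2l2 itself was called in CBA/J and in no other strain. Its lowest, median and highest signals there were 10.43, 10.86 and 11.32 in restricted mice, against 11.38, 11.62 and 11.81 in control mice. The groups did not overlap, as for 5.32% of all probe sets lower in that strain, and the difference was -0.73 ± 0.16 (adjusted p = 0.000162). When the array median entered the fit as a covariate, the difference in CBA/J was -0.23 (adjusted p = 0.278). The second probe set, 1457117_at, fell in CBA/J as well, by 1.34 ± 0.29 (adjusted p = 0.000163). In the other 5 strains the differences of the chosen probe set ran from -0.34 ± 0.16 in DBA/2J to 0.18 ± 0.16 in C3H/HeJ. Restricted CBA/J mice thus had lower signals of the regulator and, by the chosen probe set, higher signals of its inhibitor. In CBA/J the array medians of the 2 diet groups also did not overlap.

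Gclc, the catalytic subunit for glutathione synthesis, had a negative difference in all 6 strains and was called in 3. In C57BL6/J its lowest, median and highest signals were 11.95, 12.75 and 13.09 in restricted mice, against 13.16, 13.48 and 13.98 in control mice. These groups did not overlap, as for 1.17% of all probe sets lower in C57BL6/J. The difference was -0.80 ± 0.23 (adjusted p = 0.0325), a call kept under 11 of 13 alternatives (adjusted p from 3.49e-05 to 0.106). In DBA/2J the values were 11.78, 12.54 and 13.83 in restricted mice, against 12.69, 13.29 and 14.25 in control mice. Here the groups overlapped, and the difference was -0.78 ± 0.23 (adjusted p = 0.0234). In CBA/J they were 12.33, 12.6 and 13.73 in restricted mice, against 13.2, 13.37 and 13.73 in control mice, with a difference of -0.60 ± 0.23 (adjusted p = 0.0319) and the same highest value in both groups. That CBA/J difference was -0.018 once the array median was fitted as a covariate (adjusted p = 0.971). The differences not called were -0.34 ± 0.23 in 129S1/SvImJ, -0.33 ± 0.23 in C3H/HeJ and -0.44 ± 0.23 in B6C3F1/J. The interaction of strain and diet was not called for Gclc (adjusted p = 0.656).

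Gclm, the modifier subunit, had a negative difference in 5 of 6 strains and was called in 2. In DBA/2J its lowest, median and highest signals were 9.85, 11.93 and 12.12 in restricted mice, against 12.31, 12.58 and 12.9 in control mice. The groups did not overlap, as for 0.433% of all probe sets lower in DBA/2J, and the difference was -0.86 ± 0.19 (adjusted p = 0.0017). The lowest value belongs to the array of high median, without which the difference was -0.60 ± 0.13 (adjusted p = 0.000497). In C57BL6/J the values were 11.89, 12.1 and 12.31 in restricted mice, against 12.6, 12.85 and 13.24 in control mice. These also did not overlap, as for 1.17% of all probe sets lower in C57BL6/J. The difference was -0.78 ± 0.19 (adjusted p = 0.00759), a call lost with centring on the 75th percentile (adjusted p = 0.0948).
In CBA/J the 2 probe sets of Gclm disagreed. The chosen 1418627_at had 12.72, 13.38 and 13.76 in restricted mice, against 12.78, 13.05 and 13.28 in control mice, a difference of 0.29 ± 0.19 (adjusted p = 0.235, and 0.0487 without the 2 arrays of high median). The other, 1439050_at, had 9.01, 9.6 and 10.37 in restricted mice, against 11.61, 11.81 and 12.24 in control mice, a difference of -2.15 ± 0.21 (adjusted p = 1.37e-14). Restricted and control mice overlapped for the first and were fully apart for the second, as for 5.32% of all probe sets lower in CBA/J. No single direction can thus be given for Gclm in CBA/J. Without CBA/J the 2 probe sets fell by 0.56 ± 0.09 and 0.66 ± 0.09 in the average (adjusted p = 7.92e-07 and 3.78e-08).

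Gsr and Srxn1, which recycle glutathione and peroxiredoxins, were each called lower, by the chosen probe set, in DBA/2J and in no other strain with all arrays. Gsr had a lowest, median and highest signal of 6.73, 10.4 and 11.42 in restricted DBA/2J mice, against 10.7, 11.04 and 11.36 in control DBA/2J mice. The lowest value is the array of high median: the difference was -0.95 ± 0.27 (adjusted p = 0.023) with it and -0.47 ± 0.20 (adjusted p = 0.159) without. Srxn1 had 7.23, 9.17 and 9.92 in restricted DBA/2J mice, against 9.5, 9.75 and 10.05 in control DBA/2J mice. Its difference was -0.88 ± 0.26 (adjusted p = 0.0285) with that array and -0.64 ± 0.16 (adjusted p = 0.00571) without it, with overlapping groups. By its other probe set, 1421817_at, Gsr was called lower in 129S1/SvImJ (-0.63, adjusted p = 0.0174) and CBA/J (-0.45, adjusted p = 0.0319). That probe set was not called in DBA/2J (-0.36, adjusted p = 0.228). For Srxn1, 1426875_s_at was called lower in C57BL6/J (-0.88, adjusted p = 0.00116) and not in DBA/2J (-0.34, adjusted p = 0.314). In DBA/2J 1425351_at and 1419942_at were positive, at 0.32 and 0.60, and not called. The strains called thus depend on the probe set.
In B6C3F1/J both genes were on the positive side and not called. Gsr had 10.55, 10.92 and 11.1 in restricted B6C3F1/J mice, against 9.01, 10.39 and 10.66 in control B6C3F1/J mice, a difference of 0.70 ± 0.27 (adjusted p = 0.147). Srxn1 had 9.27, 9.73 and 9.97 in restricted mice of that strain, against 5.5, 9.38 and 9.77 in its control mice, a difference of 0.72 ± 0.26 (adjusted p = 0.115). The lowest control values come from replicate 2, and without it the differences were 0.53 ± 0.20 and 0.23 ± 0.16 (adjusted p = 0.132 and 0.594). In C57BL6/J Srxn1 had 8.48, 8.91 and 9.6 in restricted mice, against 9.41, 9.95 and 10.05 in control mice, a difference of -0.84 ± 0.26 that was not called (adjusted p = 0.0667). It was called at the same size without the 2 arrays (adjusted p = 7.45e-05). In CBA/J Srxn1 had 9.46, 9.59 and 10.12 in restricted mice, against 8.9, 9.14 and 9.49 in control mice, and the groups overlapped slightly. The difference there was 0.53 ± 0.26 (adjusted p = 0.106), and it was called higher without the 2 arrays (adjusted p = 0.00471).

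Txnrd1 was called lower in CBA/J and DBA/2J. In CBA/J its lowest, median and highest signals were 9.97, 10.35 and 11.23 in restricted mice, against 10.8, 11.03 and 11.53 in control mice, a difference of -0.53 ± 0.16 (adjusted p = 0.006). In DBA/2J they were 9.84, 11.05 and 11.26 in restricted mice, against 11.03, 11.45 and 11.63 in control mice, a difference of -0.51 ± 0.16 (adjusted p = 0.0399). Both pairs of groups overlapped. Without the array of high median the DBA/2J difference was -0.36 ± 0.12 (adjusted p = 0.0647), and that call was kept under 6 of 13 alternatives. The CBA/J call was kept under 10 of 13, and its difference was 0.055 once the array median was fitted as a covariate (adjusted p = 0.821). In C3H/HeJ the mean signal was 11.55 on both diets.

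Ephx1 was called lower in 129S1/SvImJ and DBA/2J with all arrays, and in every strain but CBA/J without the 2 of high median. In 129S1/SvImJ its lowest, median and highest signals were 12.08, 12.47 and 12.65 in restricted mice, against 13.44, 14.04 and 15.04 in control mice. Restricted mice lay below all control mice, as for 0.83% of all probe sets in that strain, and the difference of -1.75 ± 0.22 is a ratio of 0.298 (adjusted p = 3.01e-09). In DBA/2J the values were 10.48, 12.27 and 13.16 in restricted mice, against 12.84, 13.2 and 13.59 in control mice. These groups overlapped, with a ratio of 0.478 (adjusted p = 0.000565). The differences were -0.71 ± 0.22 in C57BL6/J (adjusted p = 0.0613), -0.76 ± 0.22 in C3H/HeJ (adjusted p = 0.0622) and -0.45 ± 0.22 in B6C3F1/J (adjusted p = 0.277). The adjusted p without the 2 arrays was 0.00179 in C57BL6/J and 0.00138 in C3H/HeJ. In CBA/J it was 0.04 ± 0.22 (adjusted p = 0.896), so Ephx1 had a negative difference in 5 of 6 strains.
The strain means of Ephx1 spanned 0.85 log2 units on restriction, between 11.84 in C3H/HeJ and 12.69 in C57BL6/J, and 1.57 units on the control diet, between 12.6 in C3H/HeJ and CBA/J and 14.17 in 129S1/SvImJ.

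Nqo1 was called in no strain. Its largest difference was in C3H/HeJ, where the lowest, median and highest signals were 7.59, 8.1 and 8.34 in restricted mice, against 6.41, 7.31 and 8.12 in control mice, a difference of 0.84 ± 0.28 (adjusted p = 0.167). It was called higher under 2 of 13 alternatives, array weights and a fit on the C3H/HeJ arrays alone (adjusted p over the 13 from 0.00509 to 0.445). Nqo1 was at or above the array median in 87 of 96 arrays, and its mean of 7.12 in restricted CBA/J mice lay below the mean array median of that group, 7.29.

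All 7 calls in DBA/2J were lost when the strain's 16 arrays were fitted alone, which left 0 genes lower, with adjusted p from 0.0714 for Ephx1 to 0.505 for Gsr among the 7. The counts in DBA/2J were 3 lower under quantile normalization, under array weights and with a covariate for the array median. The share of all probe sets called in DBA/2J under these settings was not analysed here, so these counts have no share beside them.

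Whether the response differed between strains was tested with the interaction of strain and diet. It was called for 6 of the 9 genes, beside 18.7% of all probe sets. The adjusted p was 2.47e-06 for Keap1, 0.000148 for Ephx1, 0.00045 for Srxn1, 0.00731 for Gclm, 0.00806 for Nfe2l2 and 0.00968 for Gsr. It was 0.212 for Txnrd1, 0.269 for Nqo1 and 0.656 for Gclc. Without CBA/J 1 of the 9 was called, Srxn1 (adjusted p = 0.0354), beside 0.967% of all probe sets. Keap1 then had an adjusted p of 0.525 and Ephx1 of 0.0987. That fit still held the 2 arrays of high median, and no fit left out both them and CBA/J. Without the 2 arrays the diet difference of Srxn1 went from 0.72 to 0.23 in B6C3F1/J and from -0.88 to -0.64 in DBA/2J.

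Strain levels on the control diet differed for 5 of the 9 genes by an F test over the 6 control groups, beside 35.8% of all probe sets. The adjusted p was 5.62e-09 for Ephx1, 0.000201 for Nqo1, 0.00173 for Srxn1, 0.00199 for Keap1 and 0.0124 for Gsr. Of the 135 comparisons of a gene between 2 strains, 27 were called, beside 10% of all such comparisons over all probe sets. Ephx1 accounted for 8 of its 15 pairs, Srxn1 for 6 and Nqo1 for 5, while Gclc and Gclm had 0.
Ephx1 was highest in 129S1/SvImJ, at 14.17 ± 0.54 (SD, n = 8), which differed from the next strain, C57BL6/J at 13.4 ± 0.29, by 0.77 ± 0.22 (SE, adjusted p = 0.00958). Below them came DBA/2J at 13.23, B6C3F1/J at 13.08, and C3H/HeJ and CBA/J at 12.6 each, and no neighbours among these differed beyond their spread. Without replicate 2 the B6C3F1/J mean was 13.37, above DBA/2J, and DBA/2J then differed from its next neighbour, CBA/J, by 0.63 ± 0.16 (adjusted p = 0.00327).
For the other 8 genes no neighbours in the order of strain means differed by the test, the nearest to a call being Keap1 between B6C3F1/J at 10.11 and CBA/J at 9.82 (adjusted p = 0.09). Without the 2 arrays CBA/J was lowest for both Keap1 and Txnrd1 and differed from its neighbour, by 0.29 ± 0.11 from C57BL6/J for Keap1 (adjusted p = 0.0483) and by 0.35 ± 0.12 from DBA/2J for Txnrd1 (adjusted p = 0.0319). Nqo1 ran in the order C57BL6/J at 8.4, 129S1/SvImJ at 8.13, B6C3F1/J at 7.79, DBA/2J at 7.52, C3H/HeJ at 7.19 and CBA/J at 7.12. Its 2 ends differed by 1.29 ± 0.28 (adjusted p = 0.000452). Srxn1 had 9.8 in DBA/2J and 9.79 in both 129S1/SvImJ and C57BL6/J, then 9.18 in CBA/J, 8.99 in C3H/HeJ and 8.94 in B6C3F1/J. Its ends, DBA/2J minus B6C3F1/J, differed by 0.86 ± 0.26 (adjusted p = 0.0186), and by 0.37 ± 0.16 (adjusted p = 0.12) without the array of high median. The B6C3F1/J mean was then 9.43 and C3H/HeJ the lowest, at 0.81 ± 0.16 below DBA/2J (adjusted p = 5.71e-05).
Keap1 was highest in 129S1/SvImJ at 10.37 and lowest in CBA/J, a difference of 0.55 ± 0.12 (adjusted p = 0.000303). Gsr was highest in 129S1/SvImJ at 11.16, followed by DBA/2J at 11.03, C57BL6/J at 10.74, C3H/HeJ at 10.51, CBA/J at 10.35 and B6C3F1/J at 10.2. Its ends differed by 0.96 ± 0.27 (adjusted p = 0.012). Without replicate 2 B6C3F1/J stood at 10.37 and CBA/J was lowest, at 0.81 ± 0.19 below 129S1/SvImJ (adjusted p = 0.000842). These orders are of the chosen probe sets, and others of the same genes differ. By 1421817_at Gsr was highest in C57BL6/J at 11.07, against 10.56 in 129S1/SvImJ and 10.43 in DBA/2J. By 1426875_s_at Srxn1 was highest in C57BL6/J at 10.09, against 9.55 in 129S1/SvImJ and 9.46 in DBA/2J. The strain order of Gsr and Srxn1 thus depends on the probe set. The control means of the remaining genes spanned 0.39 log2 units for Gclc, 0.5 for Gclm, 0.51 for Txnrd1 and 0.53 for Nfe2l2. Without the 2 arrays the span of Gclm was 0.69 ± 0.13, between B6C3F1/J and DBA/2J (adjusted p = 2.08e-05). Without the 2 arrays 8 of the 9 genes were called by the F test, all but Gclc, beside 43.3% of all probe sets.

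The cross B6C3F1/J was compared with the mean of its parents, C57BL6/J and C3H/HeJ. On the control diet limma called 0 of the 9 genes and 0 had an unadjusted p under 0.05, beside 7.29% of all probe sets called, 5.06% lower and 2.23% higher. The difference of largest size was -0.45 ± 0.23 for Srxn1, and it was 0.042 ± 0.14 without replicate 2 of the B6C3F1/J control group. Among the other probe sets 3 were lower in the cross. For Srxn1, 1426875_s_at differed by -0.70 ± 0.16 (adjusted p = 0.00291), and by -0.72 ± 0.17 without that array (adjusted p = 0.003). For Gsr, 1421817_at differed by -0.57 ± 0.15 (adjusted p = 0.00855), and by -0.50 ± 0.15 without it (adjusted p = 0.0266). For Gclm, 1439050_at differed by -0.60 ± 0.18 (adjusted p = 0.0233), and by -0.29 ± 0.14 without it, which was not called (adjusted p = 0.248). The diet effect of the cross less that of its parents was called in limma for 0 of the 9 genes and for 0.0% of all probe sets, and 2 of the 9 had an unadjusted p under 0.05. Those were Srxn1 at 1.03 ± 0.32 and Gsr at 0.80 ± 0.33. Without the 2 arrays of high median Srxn1 was 0.54 ± 0.20 and Gsr 0.63 ± 0.24, and neither was called (adjusted p = 0.745 and 0.763).

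From lists of 50 further genes 44 were tested, and in the average of strains 19 were higher and 6 lower, beside 11% and 11.7% of all probe sets, with a median difference of 0.143 against 0.0511 over all probe sets. G6pdx, Gsta1, Prdx1, Ftl1, Htatip2 and Cyp2a5 were not analysed here. Without CBA/J 16 were higher and 4 lower, beside 6.63% and 7.01% of all probe sets, and without the 2 arrays 21 and 7, beside 14.1% in each direction.
Genes that supply NADPH, the reducing power for Gsr, Txnrd1 and Nqo1, were higher in 5 of 5, with a median of 0.676. Pgd, an enzyme of the pentose phosphate pathway, rose by 1.23 ± 0.10 (adjusted p = 2.7e-18), and Tkt, the transketolase of the same pathway, by 0.68 ± 0.08 (adjusted p = 3.24e-12). Me1, Taldo1 and Idh1, named after their values were seen, rose by 0.96, 0.47 and 0.45. Of the glutathione and thioredoxin genes 8 of 14 were higher and 1 lower, with a median of 0.223. Gstm3 rose by 2.94 ± 0.16 (adjusted p = 4.95e-27) and Gstm2 by 1.05 ± 0.09 (adjusted p = 1.98e-16), both transferases that couple glutathione to reactive compounds. Gss, which completes glutathione after Gclc and Gclm, fell by 0.27 ± 0.06 (adjusted p = 0.000415), as those 2 genes did, and it was singled out after its value was seen.
Of 4 haem and iron genes 2 were higher: the biliverdin reductase Blvra by 0.29 ± 0.05 (adjusted p = 7.53e-06) and the haem oxygenase Hmox1 by 0.53 ± 0.13 (adjusted p = 0.000995). Of 11 detoxification and export genes 3 were higher and 3 lower. Ptgr1, a reductase of prostaglandins and other enones, rose by 1.16 ± 0.11 (adjusted p = 5.47e-16), and the aldehyde oxidase Aox1 fell by 0.45 ± 0.07 (adjusted p = 5.76e-08). The others called there, named after their values were seen, were Cbr1 at 0.24 and Akr1b8 at 0.26, and the exporters Abcc2 at -0.27 and Abcc3 at -0.36. Without CBA/J Akr1b8 was 0.11 ± 0.09 and Abcc2 -0.13 ± 0.10, and neither was called (adjusted p = 0.493 and 0.518). Of 10 regulators 1 was higher, the NRF2 partner Mafk at 0.37 ± 0.10 (adjusted p = 0.0046), and 2 were lower, Bach1, a repressor at the same elements, at -0.33 ± 0.07 (adjusted p = 0.000252) and Sqstm1, an adaptor that binds KEAP1, at -0.23 ± 0.08 (adjusted p = 0.0188), named after its value was seen. Mafk was called in CBA/J and in no other strain, at 1.42 ± 0.26 there (adjusted p = 5.13e-06), and its average without CBA/J was 0.16 ± 0.11 (adjusted p = 0.411). Bach1 was likewise called in CBA/J alone, at -1.26 ± 0.18 (adjusted p = 1.68e-08), and averaged -0.15 ± 0.08 without that strain (adjusted p = 0.288). Sqstm1 was called lower in 129S1/SvImJ at -0.80, C57BL6/J at -0.77 and DBA/2J at -0.89 and higher in CBA/J at 0.59 ± 0.19 (adjusted p = 0.0112), and averaged -0.40 ± 0.09 without CBA/J (adjusted p = 0.000709).
The called genes of the pathway thus included both directions: Gclc, Gclm, Gss and Ephx1 were lower, and Gstm2, Gstm3, Pgd and Tkt higher, in the same average.

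**Figure D4:**
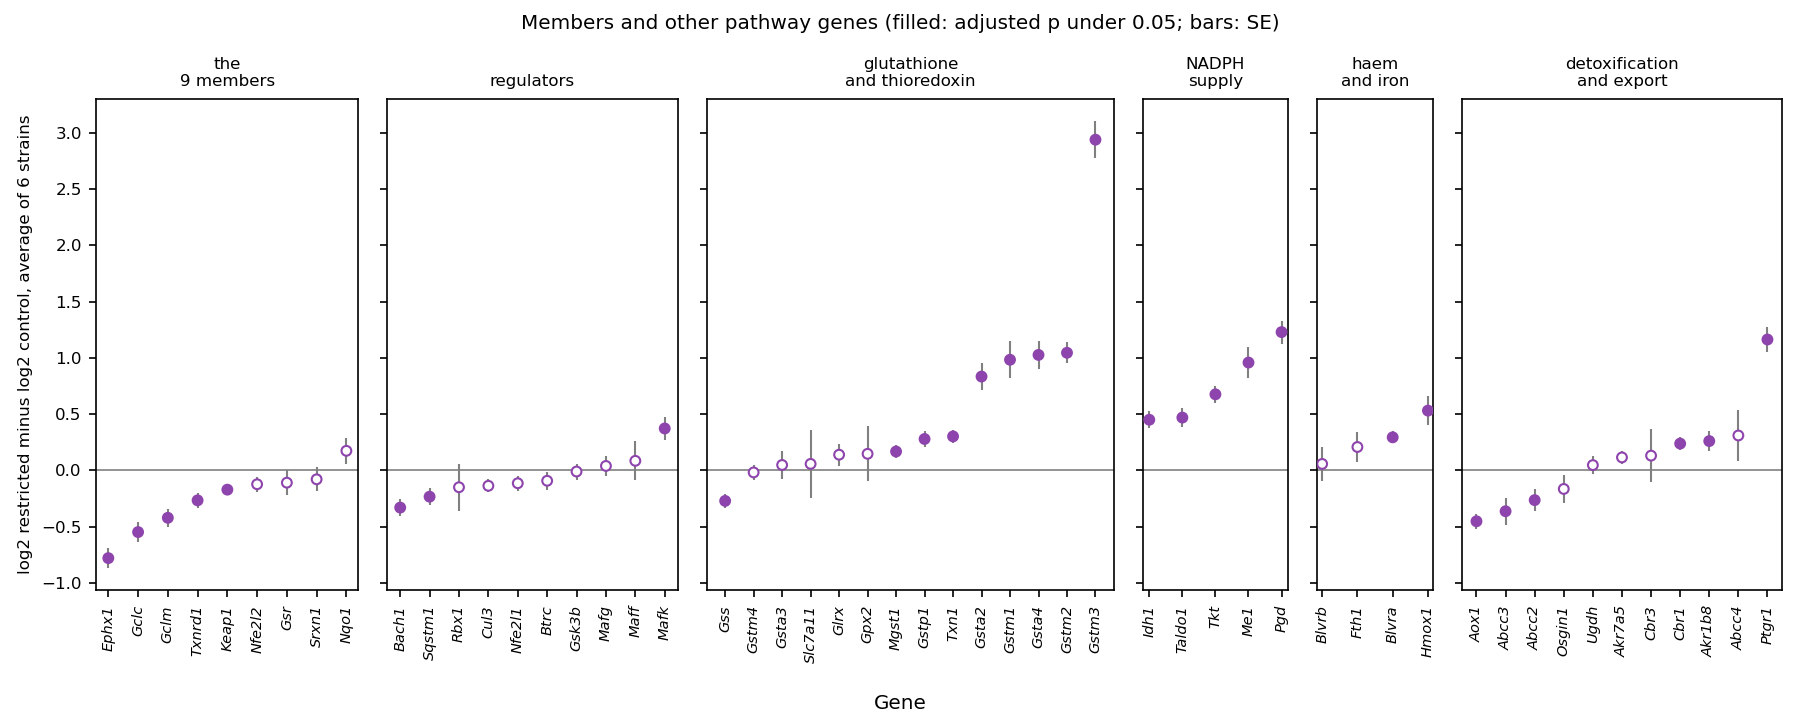
Log2 restricted minus log2 control averaged over 6 strains (vertical axis) with its SE, for the 9 members and 44 other pathway genes (horizontal axis) in 5 lists, with filled points at adjusted p under 0.05. The 5 filled points of the members lie below 0, between -0.78 and -0.17, and all 5 NADPH genes lie above it, up to 1.23 for Pgd.

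By strain, 19 of the 44 other pathway genes were higher and 4 lower in CBA/J, beside 20.6% and 15% of all probe sets. They were 10 and 0 in B6C3F1/J beside 2.15% and 1.15%, and 7 and 3 in 129S1/SvImJ beside 1.69% and 1.63%. They were 5 and 1 in C57BL6/J beside 1.21% and 1.3%, 5 and 2 in DBA/2J beside 1.93% and 3.45%, and 4 and 0 in C3H/HeJ beside 0.642% and 0.515%. Gstm3 was called higher in each of the 6 strains. Ptgr1 was higher by 1.98 ± 0.26 in 129S1/SvImJ (adjusted p = 1.9e-08), the strain in which Ephx1 fell most, and it was not called in B6C3F1/J (adjusted p = 0.145).

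How the 9 genes varied together among mice of 1 strain and diet was measured over 36 pairs of genes, after the mean of each group had been removed. With all 96 mice 18 pairs had a positive and 2 a negative correlation past an adjusted 2-sided permutation p of 0.05 (100000 draws within group, adjusted over 36 pairs). Without the 2 arrays of high median 7 pairs were positive and 1 negative. The 2 negative pairs with all mice were Nqo1 with Gclc and Nqo1 with Gclm. Neither was called without the 2 arrays (adjusted permutation p = 0.418 and 0.411). The 1 negative pair was then Gclc with Gsr, at r = -0.42 (adjusted permutation p = 0.0159). With all mice that pair had r = -0.04, and r = -0.87 in CBA/J. Most of the members varied in the opposite direction to the array median, with r from -0.73 for Txnrd1 to -0.22 for Keap1. Nqo1 had r = 0.24 with it. The part of the array median in the correlations was not tested beyond the settings given here.
Gsr and Srxn1 had r = 0.67 (permutation p = 1e-05, the smallest these draws can give, adjusted 9e-05) and rho = 0.64 (adjusted permutation p = 0.00036), and r = 0.6 without the 2 mice farthest from the median of Gsr. With all mice their correlation was positive in 6 of 6 strains, between 0.17 in CBA/J and 0.91 in DBA/2J and B6C3F1/J. Those 2 strains hold the 2 arrays of high median, without which r over all strains was 0.62. Nfe2l2 and Gclc had r = 0.62 and rho = 0.47 (adjusted permutation p = 9e-05 and 0.00054), r = 0.5 without the 2 farthest mice and 0.5 without the 2 arrays. By strain, with all mice, r of this pair ranged from 0.04 in C3H/HeJ to 0.9 in B6C3F1/J, which holds 1 of the 2 arrays. Gclc and Gclm, the 2 subunits of 1 enzyme, had r = 0.45 and rho = 0.27 (adjusted permutation p = 0.0179 and 0.0426), and r = 0.21 without the 2 arrays (adjusted permutation p = 0.206). The call for the 2 subunits was thus not kept without those arrays. With all mice their r was positive in 6 of 6 strains, between 0.06 in CBA/J and 0.8 in B6C3F1/J. It was 0.45 in 129S1/SvImJ, which holds neither array.

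**Figure D5:**
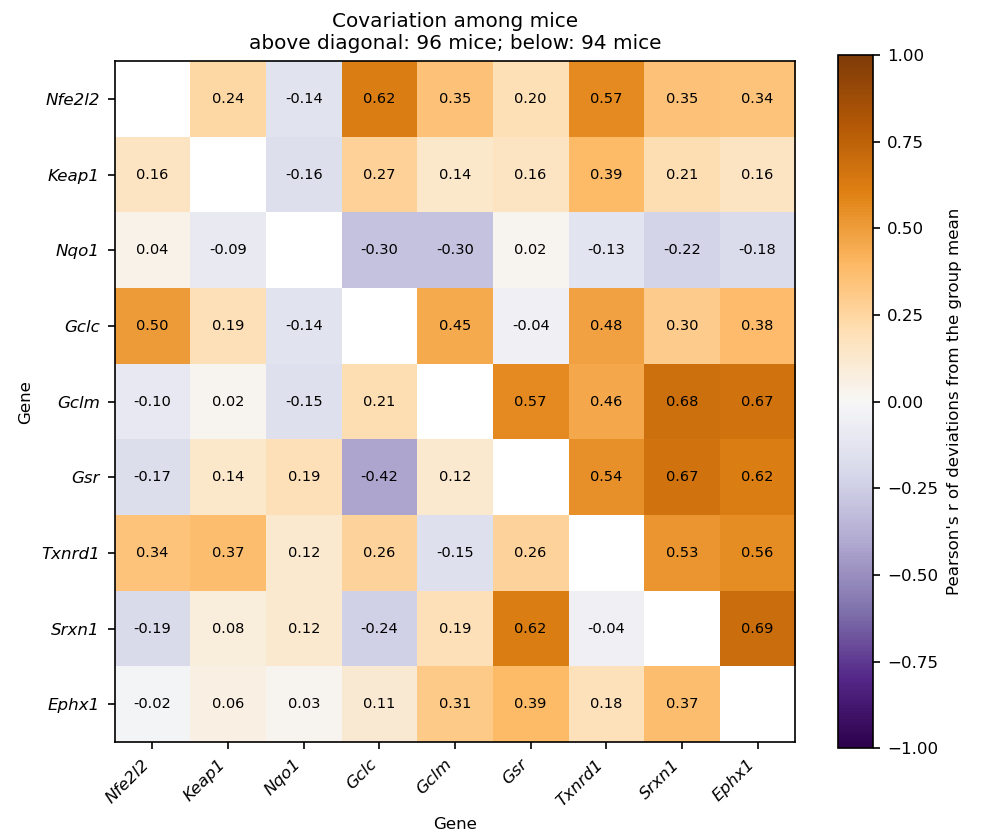
Pearson's r between the 9 genes (rows and columns) of each mouse's deviation from its group mean, with 96 mice above the diagonal and 94 mice, without the 2 arrays of high median, below it. Gsr with Srxn1 stays at 0.62 below the diagonal, while Gclm with Txnrd1 is 0.46 above it and -0.15 below it.

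Across the 12 group means, the genes whose pattern was most like each member among 14815 compared are given as a description, since all points share the same arrays. Pir, which encodes pirin, had r = 0.967 with Nqo1, and Cyp2r1, a vitamin D hydroxylase, had 0.897. Inhbe had 0.948 and Hsd17b4, a peroxisomal enzyme, 0.916 with Ephx1. Mmachc had 0.964 and Gpatch1 0.944 with Nfe2l2, and Thtpa 0.9 and Bmp1 0.889 with Keap1. Rassf8 had 0.936 and 1700008J07Rik 0.922 with Gclc, and Col27a1 0.924 and Pbld1 0.911 with Gclm. Nsmce3 had 0.954 and Map7 0.941 with Txnrd1, and Bsg 0.894 and Fcgrt 0.88 with Gsr. For Srxn1 they were 4933435C09Rik at 0.858 and the member Gsr at 0.851.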

How the data were processed

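Each of 96 mice gave 1 array of liver RNA, with its strain and diet as labelled. The table the authors deposited holds MAS5 signals, a linear intensity read from biotin-labelled cRNA, per the labels. MAS5 is named in the submitters' processing notes, with no version given in the sources used here. With 2% of probe sets trimmed at each end, every array averaged 500, so the arrays had been scaled to that level. Signals were turned into log2 values. Of 45101 probe sets 64 controls were left out, and a probe set was kept if it reached the array median in at least 8 arrays. The annotation gave 1 symbol to 34958 probe sets and several to 932. Tests used limma 3.58.1 in R 4.3.3, with 1 mean per group, eBayes with trend and robust variances, and Benjamini-Hochberg adjustment over 32999 probe sets. The number of arrays limits the precision.

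Named genes were the 9 members with all their probe sets, up to 2 genes per pathway list with the smallest p for the averaged diet effect, and the 2 genes most like each member over the 12 group means. Members, lists and tests were chosen with earlier results of these data known. The fit was tested on simulated data. No 2 arrays were identical (highest r 0.9384). Mice with the same replicate number on the 2 diets did not deviate together (r from -0.139 to 0.128), so the numbers do not pair them. Python 3.11.15 ran the permutations and drew the figures.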

Additional observations from a re-analysis of the deposited data

Results flagged for a closer look

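Single mice stood apart from the other 7 of their group, by the gap to the nearest mouse over the group's range, in 14 of the 108 combinations of gene and group. Chance alone flags about 1 in 20 groups. B6C3F1/J control replicate 2, the array with the highest median, accounted for 8 of them: Nfe2l2 at 10.21, Gclc at 11.38, Gclm at 11.18, Gsr at 9.01, Txnrd1 at 9.85, Srxn1 at 5.5 and Ephx1 at 11.12 were the lowest of that group, and Nqo1 at 9.57 was its highest. DBA/2J restricted replicate 6, the other array of high median, was the lowest of its group for Gclm at 9.85, Gsr at 6.73 and Txnrd1 at 9.84. CBA/J control replicate 1 was the highest of its group for Keap1 at 10.09 and Txnrd1 at 11.53. C57BL6/J restricted replicate 2 was the lowest of its group for Nfe2l2 at 10.59.

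The diet effect differed between strains, by the interaction test, for 6 genes. The adjusted p was 2.47e-06 for Keap1, 0.000148 for Ephx1, 0.00045 for Srxn1, 0.00731 for Gclm, 0.00806 for Nfe2l2 and 0.00968 for Gsr. Without CBA/J it was 0.525, 0.0987, 0.0354, 0.613, 0.678 and 0.0775 in the same order, so the call was kept for Srxn1 alone.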

How the results depend on the processing

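Arrays scaled only by MAS5, 2 arrays of high median and the shift of the CBA/J restricted arrays limit these results, and a signal near the array median, as for Nqo1, has little range above background. The averaged count of 5 genes lower and 0 higher became 4 lower with quantile normalization and 7 lower with the mean of the probe sets of a gene. It stayed at 5 lower under the other 11 alternatives, and 1 gene was higher with array weights. Of all probe sets 22.7% were called in the average, 19.6% with quantile normalization and 30.4% with array weights. With the mean of the probe sets of a gene 25.5% of genes were called. The share of all probe sets called in a strain is given above with all arrays and without the 2 arrays. It was not analysed for the other settings. Counts of calls within strains moved by over 1.5 times as follows, and the cause was not tested. For 129S1/SvImJ, with 2 lower, 1 was lower with centring on the 75th percentile, with no filter, with probe sets averaged per gene and with the replicate block. For C57BL6/J, with 3 lower, 1 was lower with centring, and 5 with the stricter filter, array weights, only the groups of the contrast, the array median as covariate and without the 2 arrays. For C3H/HeJ, with 0 called, 1 was lower with quantile normalization, the stricter filter, 1 probe set per gene and the covariate, 2 were lower with the mean of probe sets, array weights, only its own groups and without the 2 arrays, and 1 was higher with array weights and with only its own groups. For CBA/J, with 1 higher and 3 lower, 2 were higher with array weights and only its own groups, 3 without the 2 arrays, and 5 higher with 0 lower under the covariate. For DBA/2J, with 7 lower, 3 were lower with quantile normalization, array weights and the covariate, and 0 with only its own groups. For B6C3F1/J, with 0 called, 3 were lower with quantile normalization, array weights and without the 2 arrays, 2 with the covariate, 1 with the mean of probe sets, and 1 was higher with array weights.

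The interaction was called for 1 gene without CBA/J. Strain levels on the control diet were called for 8 genes with array weights, without the 2 arrays and with the covariate, and pairs of strains numbered 52, 48 and 41 in the same order. No share of all probe sets was set beside these counts, beyond the 43.3% given above for strain levels without the 2 arrays. With probe sets averaged per gene 1 gene was lower in B6C3F1/J than in its parents. Of the correlations, 7 positive and 1 negative were called without the 2 arrays, 0 negative with centring and 1 negative without CBA/J. The block by replicate number moved no other count by over 1.5 times.

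For single genes, 919 values kept direction and call, 47 lost and 67 gained a call. Signs turned 29 times, and 2 of these values were called on one side: Gclm in CBA/J with probe sets averaged per gene, and Txnrd1 in CBA/J with all arrays and no covariate. With probe sets averaged per gene Gclm in CBA/J was -0.9313 (adjusted p = 4.35e-06), Gsr in CBA/J -0.09687, Nfe2l2 -0.2274 in 129S1/SvImJ, -0.2536 in C57BL6/J, -0.1002 in C3H/HeJ and -0.2821 in B6C3F1/J, Gsr -0.03253 and Srxn1 -0.05645 in C3H/HeJ, and Keap1 0.01338 in B6C3F1/J. With the covariate the averaged Gsr was 0.006652 and Srxn1 0.06801, Nfe2l2 was -0.01974 in C57BL6/J and -0.1257 in B6C3F1/J, Txnrd1 0.01986 in C3H/HeJ and 0.05458 in CBA/J, and Nqo1 -0.3413 in CBA/J and -0.02829 in DBA/2J. With quantile normalization Txnrd1 was 0.0003418 in C3H/HeJ, Nqo1 -0.6679 in CBA/J and -0.1378 in DBA/2J, and Nfe2l2 -0.0093 in B6C3F1/J. With centring Txnrd1 was 0.01544 in C3H/HeJ and 0.09893 in B6C3F1/J, and in CBA/J Nqo1 was -0.135 and Ephx1 -0.1011. With array weights Nfe2l2 was -0.04929 in 129S1/SvImJ and -0.01502 in B6C3F1/J, and Nqo1 -0.03437 in DBA/2J. Without the 2 arrays Nfe2l2 in B6C3F1/J was -0.1027.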
